A study of Homo sapiens with 9 samples.

Results

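The passage of a cell from G1 into S phase is driven by D-type and E-type cyclins and their kinase partners, and 10 genes of this machinery were followed in the human glioma line U87, an established line kept in culture. The set was taken by name, with earlier results of these data known. It held the cyclins CCND1, CCND2, CCND3, CCNE1 and CCNE2, the kinases CDK2, CDK4 and CDK6, and the inhibitors CDKN1B and CDKN2C. Of the 10 genes, 9 had probe sets assigned to a single gene symbol, 24 in all, among 19775 genes so named. CDKN2C had none and was not analysed here. Of the other 9, 8 were bright enough to be tested, among 12587 tested genes, and CCND2 was not.

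Cells carried 50 nM of a miRNA duplex for 72 h, delivered with Lipofectamine RNAiMAX. There were 3 groups of 3 Affymetrix arrays: miR-376a*A, miR-376a*G and a control duplex. In cells an adenosine of miR-376a* can be converted to inosine, which is read as guanosine, so the A duplex stands for the unedited form and the G duplex for the edited form. All groups are the same line, and all received a transfected duplex. Untransfected cells were not analysed here, and a synthetic duplex at this dose is not the level a cell makes itself. The replicates are labelled biological without their cultures being named, so p-values measure the spread between these arrays.

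Signal is a linear intensity that was scaled alike on every array, so each value is relative to the rest of its array. Median signal was 18.0 to 21.1 in the miR-376a*A group, 21.7 to 24.6 in the miR-376a*G group and 18.5 to 22.0 in the control group. The log2 ratio of 3′ to 5′ GAPDH signal was -0.17 to -0.10, -0.19 to -0.14 and -0.12 to -0.08 in the same order. The 8 markers chosen for U87 as a mesenchymal glioma line lay above the array median on 9 of 9 arrays, with a summed signal of 15035 to 20105, 11358 to 12249 and 14042 to 17107. Of 5 astrocyte markers 1 passed the brightness filter, SLC1A3 at a signal of 138 to 374, while GFAP, the defining astrocyte filament, read 1.48 to 5.66. Of 5 neuronal markers 3 passed, SYT1, SNAP25 and MAP2, and the summed neuronal signal was 345 to 362 in miR-376a*G, 902 to 2184 in miR-376a*A and 858 to 1903 in control. Of the endothelial markers 1 of 3 passed, PECAM1 at 38.7 to 135, and of the oligodendrocyte markers 1 of 3, MBP at 19.5 to 40.3. The counts were 0 of 3 for leukocyte and 0 of 3 for epithelial markers. The mean log2 signal of the spiked hybridisation controls was 7.12 to 7.29 in the miR-376a*G group, below the 7.82 to 7.92 of miR-376a*A and the 7.51 to 7.70 of control. The part of these differences in the results was not tested, except that results scaled to those controls are given where a call changed. In bulk RNA, fewer cells at a given stage of the cycle and less RNA per cell cannot be told apart.

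A pair of arrays went against their labels. Across genes, the array with the label miR-376a*A replicate 1 had r = 0.987 to 0.990 with control replicates 2 and 3, and r = 0.925 to 0.934 with its own group. The one with the label control replicate 1 correlated with miR-376a*A replicates 2 and 3 at r = 0.982 to 0.990, and with its own group at r = 0.934 to 0.935. No array was relabelled. Counts of called members are given for all 9 arrays and again for the 7 that remain without this pair. Other results are from all 9 arrays unless stated. The pair was chosen from the data, so adjusted p-values from 7 arrays are too small to be read as independent evidence.

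As background, CCND1, CCND2 and CCND3 encode D-type cyclins, which bind CDK4 and CDK6 in response to growth signals. These kinases phosphorylate the retinoblastoma protein RB1 and its relatives, which hold E2F transcription factors in check. CCNE1 and CCNE2 encode E-type cyclins, themselves E2F-responsive, which bind CDK2 and complete that phosphorylation as cells enter S phase. CDKN1B encodes p27, an inhibitor of cyclin E with CDK2, and CDKN2C encodes p18, an inhibitor of CDK4 and CDK6. Glioma cells often carry lesions in this pathway.

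The miRNA strand itself is shown because the groups differ in it. The current RefSeq name of miR-376a* is hsa-miR-376a-5p. Its unedited mature sequence lies at chr14:101040788-101040809 of GRCh38.p14, plus strand, with the seed (bases 2 to 8) in capitals:
hsa-miR-376a-5p: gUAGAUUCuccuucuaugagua

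Promoters are shown for a kinase, a cyclin and an inhibitor whose transcripts separated the groups, as RefSeq gives them on GRCh38.p14. Each is the 250 bases upstream of the start site, 5′ to 3′ on the gene's strand. Of the 10 genes, 6 had an entry in the promoter table. Capitals mark the E-box CACGTG in CDK4, the GC box GGGCGG or its reverse complement in CCNE1, and CCAAT in CDKN1B. Other motifs are left in lower case, among them 3 GC boxes in the CDK4 window and 1 in the CDKN1B window. The CDK4 window at chr12:57752311-57752560, minus strand, held 3 E-boxes. The CCNE1 window at chr19:29811741-29811990, plus strand, held 7 GC boxes. The CDKN1B window at chr12:12717118-12717367, plus strand, held 2 CCAAT boxes.
CDK4: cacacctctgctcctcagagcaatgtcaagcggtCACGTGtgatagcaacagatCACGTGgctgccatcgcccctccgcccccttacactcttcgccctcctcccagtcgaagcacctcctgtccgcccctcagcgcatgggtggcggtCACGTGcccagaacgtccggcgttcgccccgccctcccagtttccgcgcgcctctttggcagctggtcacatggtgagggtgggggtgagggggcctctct
CCNE1: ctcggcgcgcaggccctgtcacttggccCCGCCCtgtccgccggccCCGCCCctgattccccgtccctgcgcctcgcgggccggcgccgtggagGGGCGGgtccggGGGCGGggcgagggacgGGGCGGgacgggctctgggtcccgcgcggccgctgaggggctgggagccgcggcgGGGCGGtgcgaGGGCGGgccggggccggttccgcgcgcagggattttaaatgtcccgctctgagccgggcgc
CDKN1B: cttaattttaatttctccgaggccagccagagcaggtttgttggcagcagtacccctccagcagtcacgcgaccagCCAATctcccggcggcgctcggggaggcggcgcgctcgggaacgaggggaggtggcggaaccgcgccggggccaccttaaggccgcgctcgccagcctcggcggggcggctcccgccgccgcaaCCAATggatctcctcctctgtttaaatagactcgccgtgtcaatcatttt
Over 35116 promoter windows of that length, searched on both strands, CACGTG was found in 6.34%, GGGCGG in 42.6% and CCAAT in 32%. The E2F sequences TTTCGCGC, TTTGGCGC, TTTCCCGC and TTTGCCGC, counted as a single motif, were found in 2.79% of windows and in 0 of those of the 6 matched genes, which says only that these letters are not in those windows. Matches of different motifs may overlap, and a match is a description of the letters.

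Of the 8 tested members of the set, 5 differed between miR-376a*G and control. CCNE1, CCNE2, CCND3 and CDK2 rose and CDKN1B fell against control at a limma adjusted p under 0.05, which makes 4 higher and 1 lower. Over all tested genes 18% were called higher and 15.4% lower in that comparison. The same 5 genes and CDK4 were called between the forms, with 5 lower and 1 higher in miR-376a*A than in miR-376a*G, against 21.8% and 16.4% of all tested genes. With all 9 arrays, limma called 0 of 8 between control and miR-376a*A, as were 0% of all tested genes. At an unadjusted p under 0.05 the count there was 0 of 8 members and 463 of 12587 genes. With arrays centred on their medians, 2 were higher and 1 lower in miR-376a*G than in control, and 1 higher and 2 lower between the forms. Under that scaling 29.1% and 33.6% of all tested genes were called in these comparisons, so 3 of 8 members lay near the share of all genes. Centring took the median of all tested genes in miR-376a*G minus control from above 0 to below 0, so rises are smaller there. A moderated F test of any difference among the groups called 6 of 8 members, against 34% of all tested genes.

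**Figure D1:**
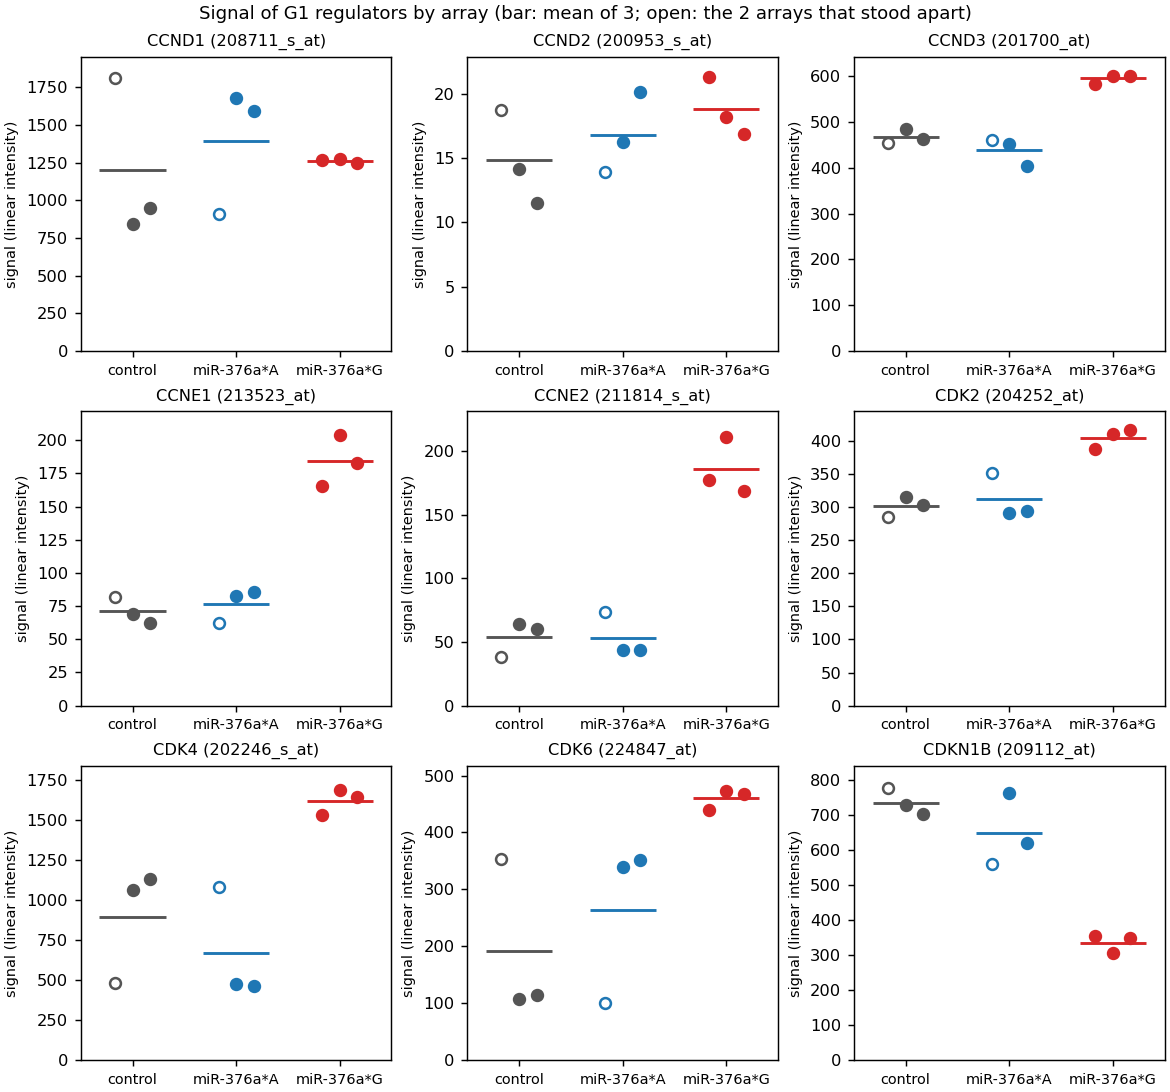
Linear signal of the brightest probe set of each gene on each array, with the axis starting at 0; bars are group means of 3 arrays and open circles are the pair of arrays that went against their labels. CCND3, CCNE1, CCNE2, CDK2, CDK4 and CDK6 are highest, and CDKN1B lowest, on the 3 miR-376a*G arrays. For CCND1, CDK4 and CDK6, and also for CCNE1 and CCNE2, the open circles lie away from the filled circles of their own group. For CDK2 so does the open circle of miR-376a*A, at 353 against 292 and 294.

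CCND1, a D-type cyclin, did not separate by label. Signal of its brighter probe set was 911, 1678 and 1592 on miR-376a*A replicates 1 to 3. It was 1268, 1276 and 1248 on the miR-376a*G arrays. On the control arrays it was 1810.0, 843 and 949. The high arrays were miR-376a*A replicates 2 and 3 and control replicate 1, the low ones were miR-376a*A replicate 1 and control replicates 2 and 3, and miR-376a*G lay between. With all 9 arrays, miR-376a*A minus control was 0.25 on the log2(signal + 1) scale, with a 95% interval of -0.43 to 0.93 and a limma adjusted p of 0.889. For miR-376a*G minus control it was 0.16, with an interval of -0.52 to 0.84 and a limma adjusted p of 0.713. miR-376a*A minus miR-376a*G was 0.09, with an interval of -0.59 to 0.77.

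Without the pair of arrays, CCND1 was higher in miR-376a*A than in control by 0.87 (SE 0.08, limma adjusted p = 1.99e-05). It was then also higher in miR-376a*A than in miR-376a*G, by 0.37 (SE 0.08, limma adjusted p = 0.00165). The probe sets of CCND1 disagreed on miR-376a*G. The other one, 208712_at, read 942, 1676 and 1776 on miR-376a*A, 865, 908 and 949 on miR-376a*G, and 1536, 802 and 832 on control. On this probe set the miR-376a*G arrays sat with the low arrays and not between. On 7 arrays, miR-376a*G minus control was 0.50 on 208711_s_at (limma adjusted p = 0.000272 as the gene's value) and 0.15 on 208712_at (limma adjusted p = 0.111).

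CCND2 was dim throughout. Its brightest of 4 probe sets read 13.9, 16.3 and 20.2 on miR-376a*A, 21.3, 18.2 and 16.9 on miR-376a*G, and 18.7, 14.2 and 11.5 on control. The groups overlapped, and the signal exceeded the array median on 1 of 9 arrays, so no test was made.

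CCND3, another D-type cyclin, was called higher in miR-376a*G than in control with all 9 arrays and on 7. Its signal was 583, 599.9 and 601 on the miR-376a*G arrays. It was 453, 484 and 462 on control and 461, 451 and 404 on miR-376a*A. All 3 miR-376a*G arrays lay above all 6 others, which overlapped. The rise over control was 1.27-fold, or 0.35 (SE 0.09, limma adjusted p = 0.017), and miR-376a*A minus miR-376a*G was -0.44 (SE 0.09, limma adjusted p = 0.00519). Without the pair of arrays the rise was 0.33. The call against control was lost, with the same direction, when any single miR-376a*G array was left out (limma adjusted p from 0.0525 to 0.0642) or control replicate 3 (0.0532). With arrays centred on their medians the difference was 0.12 (limma adjusted p = 0.571), and as the mean of both probe sets it was 0.21 (limma adjusted p = 0.486). The other probe set in that mean, 1562028_at, read 5.85 to 15.1 and lay above the array median on 0 of 9 arrays.

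CDK4, a partner of the D-type cyclins, showed a wide range. Signal was 1534, 1690.4 and 1642 on miR-376a*G. On control it was 483, 1064 and 1134, and on miR-376a*A it was 1081, 475 and 460.2. The miR-376a*G arrays were highest, and the array labelled control replicate 1 read like miR-376a*A replicates 2 and 3, while miR-376a*A replicate 1 read like the other controls. miR-376a*A minus miR-376a*G was -1.39 (SE 0.38, limma adjusted p = 0.0197). miR-376a*G minus control was 0.96 and did not pass (SE 0.38, limma adjusted p = 0.0863), although the groups did not overlap. It passed when only miR-376a*A replicate 1 was left out of the fit (limma adjusted p = 0.0237).

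CDK4 differed between miR-376a*A and control by -0.43 with all 9 arrays and was not called (SE 0.38, limma adjusted p = 0.886). Without the pair, CDK4 was lower in miR-376a*A than in control, by 2.35-fold (log2 difference -1.23, SE 0.08, limma adjusted p = 1.77e-06). It was higher in miR-376a*G than in control by 0.56 (SE 0.08, limma adjusted p = 0.000107). The call between the forms with all 9 arrays was lost on leaving out miR-376a*A replicate 2 or 3 or any single miR-376a*G array, and with arrays centred on their medians (-1.14, limma adjusted p = 0.0764). The largest of the adjusted p-values without 1 of these arrays was 0.0756.

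CDK6, the other kinase of D-type cyclins, had the same arrays apart in the opposite order. On miR-376a*G its brightest probe set, 224847_at, read 439, 474 and 468. It read 99.3, 339.9 and 351.3 on miR-376a*A and 353, 107 and 114 on control. The miR-376a*G arrays lay above all others, and the other 6 fell into a high trio and a low trio that did not follow the labels. miR-376a*G minus control was 1.49 (SE 0.55, limma adjusted p = 0.0667) and miR-376a*A minus miR-376a*G was -1.01 (SE 0.55, limma adjusted p = 0.18).

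CDK6 differed between miR-376a*A and control by 0.48 with all 9 arrays and was not called (SE 0.55, limma adjusted p = 0.886). On 7 arrays CDK6 rose 3.11-fold with miR-376a*A over control (log2 difference 1.64, SE 0.09, limma adjusted p = 5.06e-07). The rise there with miR-376a*G over control was 4.13-fold (2.05, SE 0.08, limma adjusted p = 3.09e-08). Leaving out the array labelled control replicate 1 alone also brought the miR-376a*G comparison past the threshold (2.05, limma adjusted p = 0.0108), as did leaving out only miR-376a*A replicate 1 (1.49, limma adjusted p = 0.0144). Of the other tested CDK6 probe sets, 224851_at and 207143_at were called in miR-376a*G against control with all 9 arrays, by 1.25 (limma adjusted p = 0.011) and 1.29 (limma adjusted p = 0.0267). Another, 224848_at, was not called there (1.32, limma adjusted p = 0.11). The dimmest tested probe set, 243000_at, read 16.3 to 30.3 over the 9 arrays and was not called in any comparison.

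**Figure D2:**
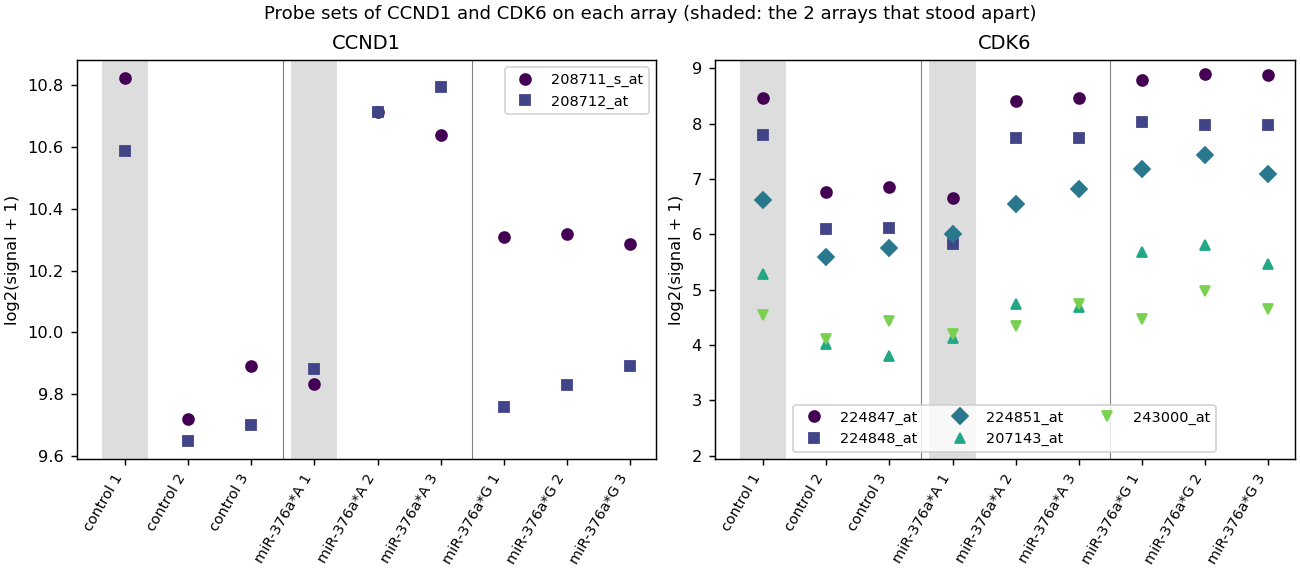
log2(signal + 1) of the tested probe sets of CCND1 (left) and CDK6 (right) on each of the 9 arrays, with the pair of arrays that went against their labels shaded. The CCND1 probe sets part on the miR-376a*G arrays, where 208711_s_at read 1248 to 1276 and 208712_at 865 to 949 in linear signal, while 4 of the 5 CDK6 probe sets place miR-376a*G highest.

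CCNE1 encodes a cyclin that activates CDK2 at the G1 to S boundary. Its signal was 165, 204 and 183 on the miR-376a*G arrays. It was 81.9, 69.0 and 62.2 on control and 62.3, 82.9 and 85.6 on miR-376a*A. The miR-376a*G arrays lay above all others, and control and miR-376a*A overlapped. CCNE1 rose 2.58-fold over control (log2 difference 1.37, SE 0.17, limma adjusted p = 0.000445) and was lower in miR-376a*A than in miR-376a*G by 2.39-fold (limma adjusted p = 0.000608). On 7 arrays the differences were 1.47 and -1.11, both called. Between miR-376a*A and control the 95% interval was -0.28 to 0.50 with all 9 arrays. On 7 arrays the difference was 0.36, with an interval of 0.06 to 0.65 and a limma adjusted p of 0.0523.

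CCNE2, the other E-type cyclin, gave the largest fitted rise of the 8 genes in miR-376a*G over control on all 9 arrays. Signal was 177, 212 and 169 on miR-376a*G. It was 37.9, 64.1 and 60.1 on control and 73.4, 43.6 and 43.3 on miR-376a*A. The miR-376a*G arrays exceeded all the rest, and among the other 6 the highest was miR-376a*A replicate 1 and the lowest control replicate 1. The rise was 3.46-fold (1.79, SE 0.26, limma adjusted p = 0.000969), and miR-376a*A was lower than miR-376a*G by 3.52-fold (limma adjusted p = 0.000807). On 7 arrays the differences were 1.56 and -2.06, both called. The dimmer probe set 205034_at rose by 1.41 over control (limma adjusted p = 0.00457). CCNE2 differed between miR-376a*A and control by -0.02 with all 9 arrays (SE 0.26, limma adjusted p = 0.984), and 205034_at by -0.42 (limma adjusted p = 0.9). Neither was called. On 7 arrays CCNE2 was lower in miR-376a*A than in control by 0.50 on the log2 scale (difference -0.50, SE 0.14, limma adjusted p = 0.0161). There 205034_at was lower by 0.87 (difference -0.87, limma adjusted p = 0.00259).

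CDK2, the kinase bound by E-type cyclins, moved less. Signal was 388, 411 and 417 on miR-376a*G. It was 286, 316 and 303 on control and 353, 292 and 294 on miR-376a*A. The miR-376a*G arrays again lay above the others without overlap. The rise over control was 1.34-fold (0.43, SE 0.11, limma adjusted p = 0.017), and miR-376a*A minus miR-376a*G was -0.38 (SE 0.11, limma adjusted p = 0.0254). A dimmer probe set, 211804_s_at, rose by 0.85 over control (limma adjusted p = 0.0111). The call against control was lost on leaving out miR-376a*G replicate 2 or 3 (limma adjusted p of 0.0591 and 0.0667) and with arrays centred on their medians (0.20, limma adjusted p = 0.435). CDK2 differed between miR-376a*A and control by 0.05 with all 9 arrays and by -0.08 on 7, with intervals of -0.20 to 0.30 and -0.27 to 0.11. The call between the forms was lost on leaving out miR-376a*A replicate 2 or 3 or any single miR-376a*G array (limma adjusted p from 0.057 to 0.0883).

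CDKN1B, which encodes the inhibitor p27, was the tested gene that fell with miR-376a*G. Signal was 355, 305 and 347 on miR-376a*G. It was 776, 727 and 702 on control and 559, 761 and 620.3 on miR-376a*A. All miR-376a*G arrays were below all others. CDKN1B fell 2.19-fold from control (log2 difference -1.13, SE 0.13, limma adjusted p = 0.000262) and was 1.91-fold higher in miR-376a*A than in miR-376a*G (limma adjusted p = 0.000628). Without the pair of arrays these differences were -1.09 and 1.04, both called. With arrays scaled to the hybridisation controls the difference between the forms was 0.26 (limma adjusted p = 0.165), while the fall against control was still called. miR-376a*A minus control was -0.20 with all 9 arrays (95% interval -0.49 to 0.10) and -0.06 on 7 (-0.31 to 0.20).

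**Figure D3:**
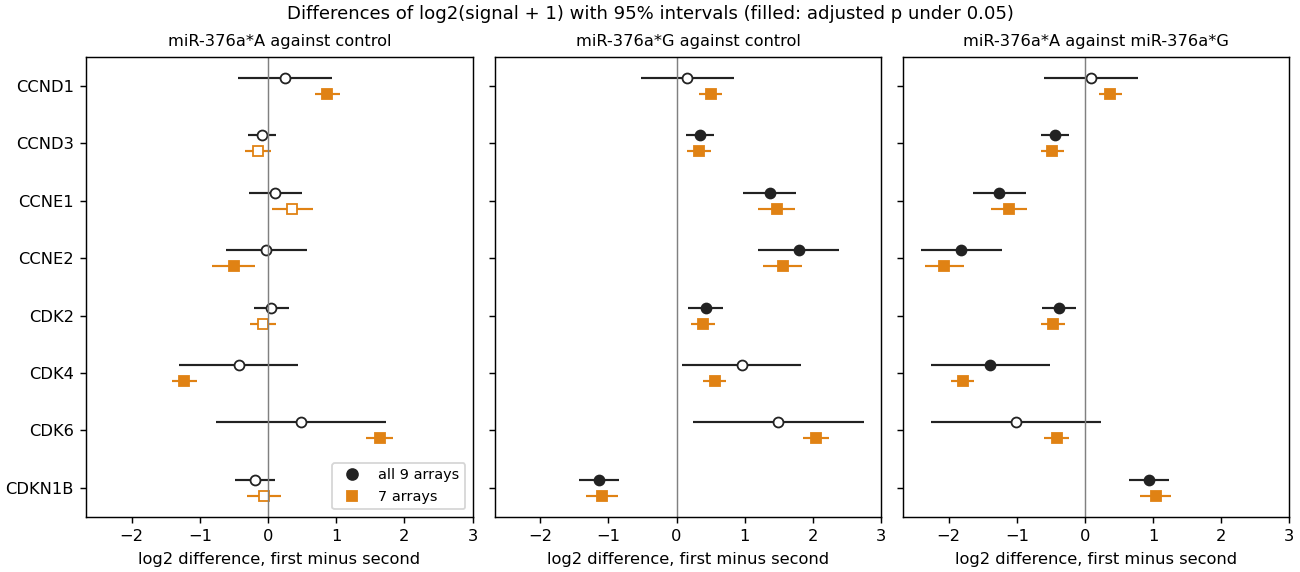
Differences of log2(signal + 1) with 95% intervals for the 8 tested genes in each comparison, fitted on all 9 arrays (black circles) and on 7 arrays (orange squares); filled symbols had an adjusted p under 0.05. In miR-376a*A against control 0 symbols are filled for 9 arrays and 4 for 7 arrays. In the other comparisons CCND3, CCNE1, CCNE2, CDK2 and CDKN1B are filled under both fits.

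Counted over the set, the groups miR-376a*G and control did not overlap for 7 of 8 genes, CCND1 being the exception, and 53.4% of all tested genes did not overlap. Between the forms the count was also 7 of 8, against 53.5%, and between miR-376a*A and control 0 of 8, against 6.15%. The median difference of the 8 genes in miR-376a*G minus control was 0.69, beside 0.12 over all tested genes. In miR-376a*A minus miR-376a*G the medians were -0.72 and -0.14, and in miR-376a*A minus control 0.01 and -0.02. The counts of overlap are given for all 9 arrays only. On 7 arrays the medians of the 8 genes, in the same order, were 0.53, -0.47 and -0.07. Those of all tested genes were then 0.12, -0.12 and 0.005. These comparisons share arrays, so they are not independent of each other.

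On 7 arrays, 4 of 8 genes were called between miR-376a*A and control: CCND1 and CDK6 higher, CDK4 and CCNE2 lower, against 19% and 22.9% of all tested genes. In miR-376a*G against control 8 of 8 were called, 7 higher and 1 lower, against 31.2% and 25%. Between the forms 8 of 8 were called, 2 higher and 6 lower in miR-376a*A, against 25.7% and 34%. The F test then called 8 of 8, against 71.8% of all tested genes.

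Of the 24 probe sets of these genes, 15 were bright enough to be tested singly. With all 9 arrays, 8 were higher and 1 lower in miR-376a*G than in control, against 16.6% and 15.6% of all tested probe sets. Between the forms 1 was higher and 8 were lower in miR-376a*A, against 16.6% and 19.6%. In miR-376a*A against control 0 of 15 passed limma's adjusted threshold, as did 0 of all 24310 tested probe sets. At an unadjusted p under 0.05 the count was 0 of 15, beside 463 of 12587 tested genes. That count was not made over all probe sets.

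Other genes of the pathway were taken from lists written by role, with earlier results of these data known. They are counted here for miR-376a*G against control with all 9 arrays unless stated, by limma adjusted p over all tested genes, where 18% of all tested genes were higher and 15.4% lower. A share of a list near these is no result about it. Among pocket proteins, E2F factors and DP partners, 5 of 13 rose and 1 fell, with a median of 0.46. RB1, the retinoblastoma gene, was the one that fell, with signals of 143, 154 and 123 on miR-376a*G, 314, 359 and 357 on control and 368, 280.1 and 264 on miR-376a*A (log2 difference -1.29, limma adjusted p = 0.000347). Its relative RBL1 rose by 1.47. E2F2, an activating E2F, read 273, 258 and 283 on miR-376a*G, 39.1, 40.4 and 37.2 on control and 35.1, 45.3 and 39.3 on miR-376a*A, a rise of 2.77 (limma adjusted p = 6.73e-06). E2F8, a repressive E2F, rose by 2.31.

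Of E2F-responsive S-phase genes, 16 of 17 tested rose, 0 fell and 1 was not called, with a median of 1.49. The replication licensing genes CDC6 and CDT1 rose by 2.20 and 2.26, the ribonucleotide reductase subunit RRM2 by 1.49, and GINS2, of the replicative helicase, by 2.33. In miR-376a*A against control the same list had 0 calls with all 9 arrays. On 7 arrays it had 3 higher and 1 lower, with a median of 0.00 over members that went both ways, against 19% and 22.9% of all tested genes. TYMS, which encodes thymidylate synthase, was higher by 1.03 there (limma adjusted p = 3.32e-05), and MCM2, of the replicative helicase, differed by -0.30 (limma adjusted p = 0.0265); both were chosen after their values were seen. Between the forms 15 of 17 were lower in miR-376a*A and 0 higher, against 21.8% and 16.4% of all tested genes.

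Genes that switch CDKs on and off gave 6 higher and 1 lower of 9. The phosphatases CDC25A, CDC25B and CDC25C, which remove inhibitory phosphate from CDKs, rose by 2.27, 0.45 and 2.06, and PKMYT1, an inhibitory kinase, rose by 1.77. On 7 arrays 0 were higher and 4 of 9 lower in miR-376a*A than in control, against 19% and 22.9% of all tested genes. One of those was CCNH, the cyclin of the CDK-activating kinase (log2 difference -1.38, limma adjusted p = 1.19e-05), whose signal read 649, 299.6 and 222 on miR-376a*A and 287, 659.8 and 689 on control. Like CDK4, it was low on miR-376a*A replicates 2 and 3 and control replicate 1.

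In the list for turnover of G1 cyclins and p27, 5 of 16 rose and 1 fell. CKS1B, the cofactor with which the ubiquitin ligase subunit SKP2 binds p27, rose by 1.10, CKS2 by 0.88 and the CDK phosphatase CDKN3 by 1.59, and CUL4B, a ligase scaffold, fell by 0.94. SKP2 itself was picked out after its values were seen. It read 426, 424 and 378 on miR-376a*G, 51.3, 258 and 236 on control and 298, 56.5 and 46.7 on miR-376a*A. miR-376a*G was highest, and the low arrays were miR-376a*A replicates 2 and 3 and control replicate 1, as for CDK4. SKP2 was not called with all 9 arrays in miR-376a*A minus control (-0.66, limma adjusted p = 0.887) or miR-376a*G minus control (1.47, limma adjusted p = 0.168). On 7 arrays miR-376a*A minus control was -2.24 (SE 0.12, limma adjusted p = 4.09e-07).

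Among the other CDK inhibitors 3 of 5 were tested and 0 were called in miR-376a*G against control. CDKN1A, which encodes p21, read 447, 467 and 551 on miR-376a*G, 745, 545 and 475 on control and 502, 729 and 676 on miR-376a*A, so all groups overlapped. On 7 arrays CDKN1A was higher in miR-376a*A than in control by 0.46 (limma adjusted p = 0.00773). CDKN2D, an INK4 inhibitor, was higher in miR-376a*G than in control by 0.57 on 7 arrays (limma adjusted p = 0.00181). It was higher still in miR-376a*A, by 0.92 over control (limma adjusted p = 0.000229) and by 0.35 over miR-376a*G (limma adjusted p = 0.0248).

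Cyclins and CDKs of other phases gave 6 higher and 4 lower of 23, near the shares of all tested genes, with a median of 0.13 beside 0.12 for all. Those named were CCNA2, the cyclin of S phase and mitosis, up by 2.56, the mitotic cyclin CCNB2 by 2.01 and CCNF, an F-box cyclin, by 1.80, whereas CCNG2, an unconventional cyclin linked to cell cycle arrest, fell by 1.70. Inputs to D-type cyclins and p27 gave 4 higher and 6 lower of 19 tested. FOXM1, a transcription factor of cycling cells, rose by 1.48, while STAT3 fell by 1.10, ETS1 by 0.90 and CTNNB1, which encodes beta-catenin, by 0.55. On 7 arrays this list had 10 higher and 2 lower in miR-376a*A than in control, where 19% of all tested genes were higher and 22.9% lower.

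**Figure D4:**
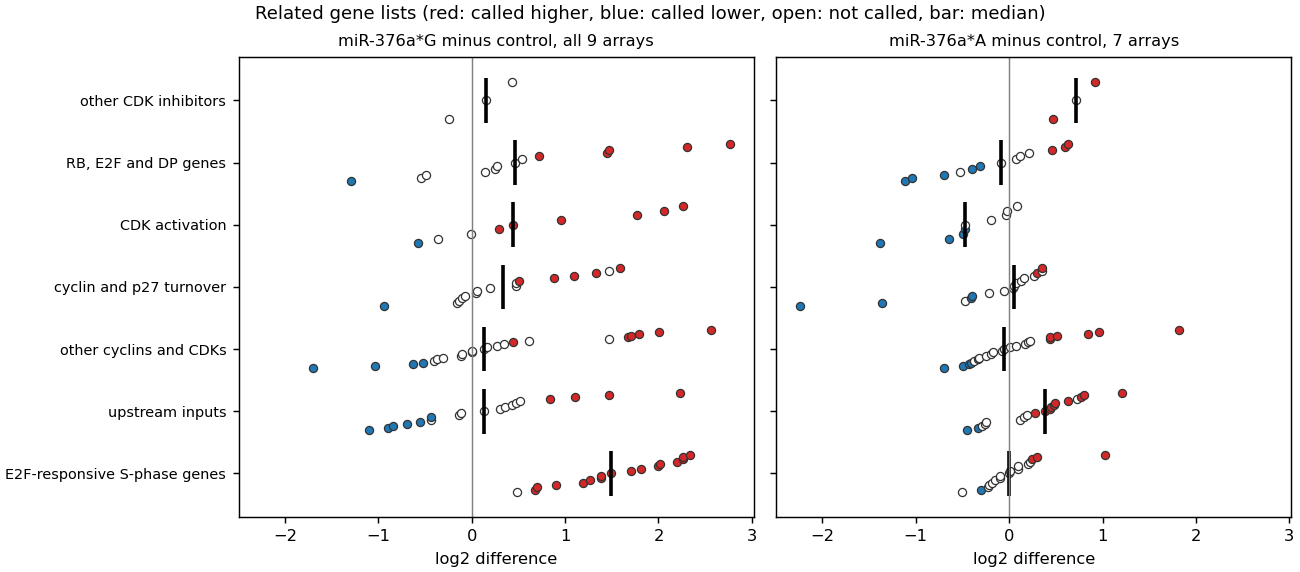
log2 differences of the tested genes of each related list, for miR-376a*G minus control on all 9 arrays (left) and miR-376a*A minus control on 7 arrays (right); each point is a gene, red or blue where called higher or lower, and the black bar is the list's median. The E2F-responsive list has a median of 1.49 on the left and 0.00 on the right, and the upstream inputs have called genes on either side of 0.

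For each tested gene, the genes with the most similar pattern were taken by Pearson's r of log2(signal + 1) over the 9 arrays, given as a description of likeness among arrays that share their groups. The nearest was FST for CCND1 (r = 0.984), C11orf71 for CCND3 (0.994), HGF for CCNE1 (0.995), ZNF273 for CCNE2 (0.999), TMEM97 for CDK2 (0.986), CENPU for CDK4 (0.996), FAM3C for CDK6 (0.994) and PRDM1 for CDKN1B (0.995). Over 7 arrays, FST, ZNF273 and PRDM1 were still among the 3 nearest to CCND1, CCNE2 and CDKN1B, as was HMMR, the second nearest over 9 arrays, for CDK4. For CCND3, CCNE1, CDK2 and CDK6 the 3 nearest genes were replaced.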

How the data were processed

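The authors deposited 1 linear intensity per probe set and array, for 54675 probe sets on 9 arrays, and GCOS 1.4.0.036 is named in the submitters' processing notes. For the summarisation settings and genome build, the sources used here give nothing. Values were already scaled, since a mean trimmed by 2% on either side came to 100.0 on all arrays. Groups came from the labels. The members and gene lists were chosen with earlier results of these data known, and the arrays left out in the fits of 7 arrays likewise.

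Of the probe sets, 41091 had a single symbol in the platform table, 1801 had several and 11777 were not listed, with 62 control probe sets excluded. Each gene was its brightest probe set, tested on log2(signal + 1) where above the array median on at least 3 arrays. Such folds understate changes of dim genes. limma 3.58.1 in R 4.3.3 fitted 1 coefficient per group with an intensity trend, with 6 residual degrees of freedom, or 4 on 7 arrays. Calls had a two-sided Benjamini-Hochberg adjusted p under 0.05 over all tested genes. The fit was also tested on simulated data.

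Named genes were all members, up to 4 genes of each list with the smallest p per comparison, and the 3 genes most like each member. Sensitivity was tried over pseudocounts, brightness filters, scalings, probe set choice, array weights, a replicate block, arrays left out and fits of only the groups compared. No pairing of arrays by replicate number was seen, though for miR-376a*A with control it could not be judged. The number of arrays limits the precision.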

Additional observations from a re-analysis of the deposited data

How the results depend on the processing

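CCNE1 and CCNE2 were higher and CDKN1B lower in miR-376a*G than in control, and past the threshold, under each alternative run for that comparison. With arrays centred on their medians, 3 members were called in miR-376a*G against control, 3 between the forms and 3 by the F test, beside 29.1%, 33.6% and 29.5% of all tested genes. The split there was 2 higher and 1 lower against control, and 1 higher and 2 lower between the forms, in place of 4 and 1, and 1 and 5. The median of all genes in miR-376a*G minus control was 0.12 as deposited, -0.12 after centring, 0.07 after quantile normalization, 0.52 scaled to the hybridisation controls and 0.42 scaled to the poly-A controls. CDK4 and CDK6 passed against control under the last 2 scalings (1.36 and 1.90, then 1.26 and 1.80), and CDKN1B was not called between the forms when scaled to the hybridisation controls (0.26, limma adjusted p = 0.165), whereas CDK6 was (-1.68, limma adjusted p = 0.018). Array quality weights gave 4 members in miR-376a*A against control and 8 in miR-376a*G against control, as did leaving out both arrays that stood apart (4 and 8). The shares of all tested genes were 43.8% and 62.5% with weights and 41.9% and 56.1% without both. Leaving out 1 array gave 0 to 0 members in miR-376a*A against control, 3 to 7 in miR-376a*G against control, 4 to 6 between the forms and 3 to 7 by the F test, where the shares of all genes were 0 to 0%, 23.8% to 39.3%, 27.8% to 44.5% and 21.6% to 45.2%. For probe sets of members these ranges were 0 to 0, 6 to 12 and 5 to 11, beside up to 0.00411%, 22.2% to 38.1% and 25.5% to 42.9% of all tested probe sets.

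Probe sets called between the forms numbered 5 after centring, 5 with the replicate block and 14 without both arrays, where 32.5%, 25.6% and 58.3% of all tested probe sets were called. In miR-376a*A against control they numbered 9 with array weights and 9 without both, beside 40.5% and 40.2%. The replicate block gave 3 members in miR-376a*G against control and 3 by the F test, beside 23.3% and 21.8% of all tested genes, losing CCND3 and CDK2 against control (limma adjusted p of 0.0641 and 0.0666). Same-numbered arrays did not deviate together, with correlations from -0.88 to 0.05, and 0 of 9 arrays correlated best with their own number. This alternative set of counts over probe sets was added after seeing the data.

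The differences that changed sign from their value on all 9 arrays passed the threshold neither there nor under the setting named here, and the cause was not tested. CCND1 in miR-376a*G minus control was -0.071 after centring and -0.052 without control replicate 2. CCND1 between the forms was -0.028 (quantile), -0.59 (hybridisation controls), -0.12 (poly-A controls) and -0.069 and -0.031 without miR-376a*A replicates 2 and 3. In miR-376a*A minus control, CCND1 was -0.022, CCNE1 -0.16 and CDK2 -0.22 with the hybridisation controls. CCNE1 was -0.28 and CDK2 -0.12 as the mean of all probe sets. Each of these means includes a probe set above the array median on 0 of 9 arrays. CDK2 was -0.067 with weights, -0.040 without miR-376a*A replicate 1 and -0.079 without both. CCND3 was 0.0097 with the poly-A controls. CCNE2 was 0.024 (quantile), 0.074 (poly-A controls), 0.098 and 0.10 without miR-376a*A replicates 2 and 3, 0.12 without control replicate 2 and 0.071 without control replicate 3. On 7 arrays CCNE2 and CCND1 kept their sign and passed, CCNE2 in that comparison at -0.50 and CCND1 at 0.50 in miR-376a*G minus control and 0.37 between the forms.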
